A study of Saccharomyces cerevisiae with 17 samples.

Results

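The 38 genes described here encode the proteins that budding yeast makes in the middle and late stages of sporulation, when a diploid cell that has completed meiosis packs its nuclei into spores. They were chosen by name, from NDT80, the SPO, SPS, SPR, SSP, ADY and DIT genes and other genes of the prospore membrane and the spore wall. No value below set the choice, but earlier results of these data were known when it was made. They are 38 of the 6692 genes in the deposited count table, and all 38 were found. Poly(A) RNA of growing cells was sequenced in 17 libraries from 4 genotypes. Wild type gave 5 libraries, upf1Δ gave 3, nmd4Δ gave 6 and ebs1Δ gave 3. All strains were BY4741, a haploid laboratory strain of mating type a, and all carried the LEU2 plasmid pRS415 and grew in synthetic glucose medium without leucine. In each deletion strain the open reading frame was replaced by the URA3 gene of Kluyveromyces lactis (KlURA3), which the wild type lacks, so effects of the marker and of the deletion cannot be told apart. Libraries are labelled as biological replicates, without saying whether they came from separate clones or cultures, and p-values measure only the spread between them.

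Sporulation genes are switched on in order in a starved a/α diploid. Ime1 and the kinase Ime2 start the early meiotic genes, and the transcription factor Ndt80 then turns on the middle genes by binding the middle sporulation element in their promoters. In vegetative cells the repressor Sum1 occupies many of these elements. Upf1 is the RNA helicase of nonsense-mediated mRNA decay (NMD), which degrades mRNAs on which translation ends too early, and Nmd4 and Ebs1 are proteins that bind Upf1. A haploid cell in growth medium does not sporulate, so the values below are low-level mRNAs of a programme that these cells do not carry out.

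Libraries held 19.75 to 59.48 M counted reads, in 2 sequencing batches. Batch 1 held all upf1Δ and ebs1Δ libraries, 2 of wild type and 3 of nmd4Δ, and batch 2 held wild type and nmd4Δ only. Each batch 2 nmd4Δ library deviated from its group together with 1 batch 1 library. Correlations over 4064 genes were 0.769 to 0.882, against -0.653 to -0.116 for the other pairs. Wild type matches are less certain. Its 2 batch 1 libraries mirror each other, so the correlations were equal and opposite. Replicates 3 and 4 matched replicates 1 and 2 at 0.834 and 0.678. Replicate 5, at 0.426 with replicate 2, was kept as its own set. On this basis wild type and nmd4Δ libraries were counted as 3 matched sets per genotype in each mean ± SD. The deleted genes matched the labels. UPF1, listed as NAM7, had 4535 to 10325 reads in wild type and 5 to 59 in upf1Δ. NMD4 had 805 to 1765 reads in wild type and 17 to 61 in nmd4Δ, and EBS1 had 3325 to 6950 and 0 to 1. The defining genes of MATa haploid cells were present in every genotype, with a summed level of 2400 to 2590 CPM (reads per 1 M reads of the library) in wild type, 1390 to 1680 in upf1Δ, 1990 to 2370 in nmd4Δ and 1990 to 2330 in ebs1Δ.

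Without Upf1, the mRNAs of these genes were together 3.33-fold more abundant. Their summed level was 176 ± 1.06 CPM in wild type, 586 ± 25.9 in upf1Δ, 207 ± 2.78 in nmd4Δ and 242 ± 10.6 in ebs1Δ (SD, n = 3 sets per genotype). In nmd4Δ and in part of wild type a set averages a library of each batch, while in upf1Δ and ebs1Δ it is 1 library. The SDs are therefore not alike, and those of wild type and nmd4Δ can understate the spread between libraries. Single libraries ran from 171 to 181 CPM in wild type, 559 to 610 in upf1Δ, 200 to 214 in nmd4Δ and 235 to 255 in ebs1Δ, and no deletion overlapped wild type. Of the 38 genes, 35 had enough reads to test. Against wild type, 31 of the 35 were higher in upf1Δ and 0 were lower (edgeR quasi-likelihood test, Benjamini-Hochberg adjusted p under 0.05 over 6162 tested genes), where 36.4% of all tested genes were called higher and 35.1% lower. The 31 include SPO19, which entered the test only through the upf1Δ libraries. In nmd4Δ 16 were higher and 0 lower, beside 13.6% and 14.4% of all genes. With matched libraries summed, only DIT1, ADY4, SPO20 and SPO73 were higher. With matched libraries treated as a block in limma voom 1 was higher, DIT1. The nmd4Δ calls of the 16 named below, other than DIT1, therefore depend on how those libraries are taken. For these and the other alternative fits below, the share of all genes called is not given. A smaller count there is therefore not set against a general fall in calls. In ebs1Δ 15 were higher and 0 lower, beside 14% and 7.38%, and 10 were higher with the same block. At an unadjusted p under 0.05 the number lower was also 0 in each of the 3 comparisons, as it was by DESeq2 and by limma voom. The 3 comparisons share the wild type libraries, so their calls are not independent of one another.

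**Figure D1:**
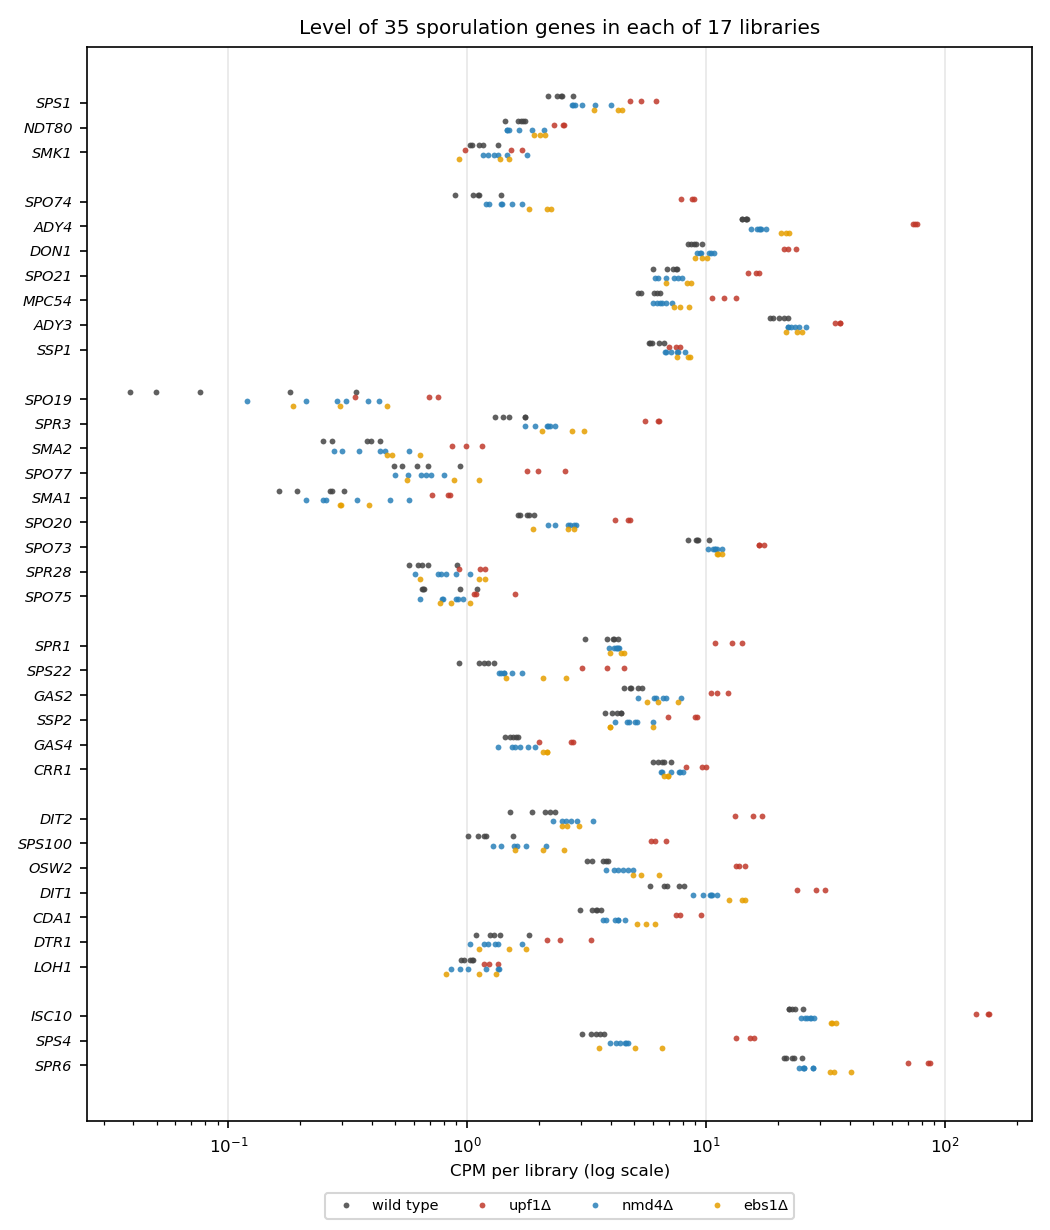
Level of the 35 tested sporulation genes in each library, in CPM on a log scale, grouped from top to bottom by role and ordered within a role by the change in upf1Δ. Each point is 1 library. The upf1Δ points lie to the right of all wild type points for 32 of the 35 genes, beside 35.4% of all tested genes.

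These mRNAs were scarce. The median of the 38 genes was 1.9 CPM in wild type, 6.82 in upf1Δ, and 2.65 in both nmd4Δ and ebs1Δ. Under 2 CPM lay 19 genes in wild type, 10 in upf1Δ, 17 in nmd4Δ and 12 in ebs1Δ. Levels reached 10 CPM in 4 genes of the wild type and in 14 of upf1Δ. Per kilobase of gene length, the level in wild type was highest for SPR6 (39.2 CPM per kb), followed by ISC10 (28.8), SPO73 (21.3), ADY4 (9.75), ADY3 (8.62) and DON1 (8.22). In upf1Δ the order was ISC10 (182 CPM per kb), SPR6 (140), ADY4 (50.6) and SPO73 (39.2). The genes ISC10, ADY4, SPR6 and ADY3 together held 45.8% of the summed CPM in wild type and 57.6% in upf1Δ.

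The promoters were read first for what the genes share in sequence. A middle sporulation element core, taken as the letters CACAAAA or the letters CACAAAT, or as the variant CGCAAAA or the variant CGCAAAT, on either strand, lay within 250 bases before the start codon of 28 of the 38 genes (73.7%), against 1027 of 6001 protein-coding genes (17.1%). In a longer form, where a G and any 1 base precede the core, it was found in 22 (57.9%), against 272 (4.53%). More than 1 core lay in 6 of the promoters (15.8%), against 1.87% of all. The upstream repression sequence core of early meiotic genes, GGCGGC, was found before 4 genes (10.5%, SMK1, MPC54, ADY3 and DON1), against 4.17%. The stretches below, of 30 bases each, are shown because they belong to the regulators and to the genes that changed most; they come from the RefSeq R64 genome, which is the sacCer3 build of the files, as are all positions below, and are written 5′ to 3′ on the strand of the gene with the core or its reverse complement in capitals.
NDT80 (chrVIII:356330-356359, + strand): caggccgtatgaCACAAAAgagtagaaaac
NDT80 (chrVIII:356463-356492, + strand): aattgccctccaTTTTGTGtcacctattta
SMK1 (chrXVI:666188-666217, + strand): tcggcgccactaATTTGTGacacttgaaca
SPO74 (chrVII:185498-185527, - strand): atcaatgttctcTTTTGTGtcacaagaaat
ADY4 (chrXII:592245-592274, - strand): cctgtccattgcCACAAAAgttctatttac
ADY4 (chrXII:592049-592078, - strand): attgatcatagtCACAAATtgtcggctcac
ISC10 (chrV:550735-550764, - strand): tgagtttctataTTTTGCGcctgttttaca
SPS4 (chrXV:903047-903076, - strand): attgacgcgcgcCACAAAAacgtatcattg
OSW2 (chrXII:251157-251186, - strand): ctgatcccttcaTTTTGTGtcagtaattca
No core lay in this window before SPS1, SPO20, SPR1, SSP2, DIT1, DIT2, DTR1, OSW1, SPS100 and SPR6. Among tested genes of the 38, 22 of 26 with a core were higher in upf1Δ, with a median log2 fold change of 1.27. Without a core it was 9 of 9, with a median of 1.68, and over all tested genes 36.4%. The 22 of 26 with a core include SPO19, which entered the test only through the upf1Δ libraries. A match describes these letters only; binding was not measured.

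**Figure D2:**
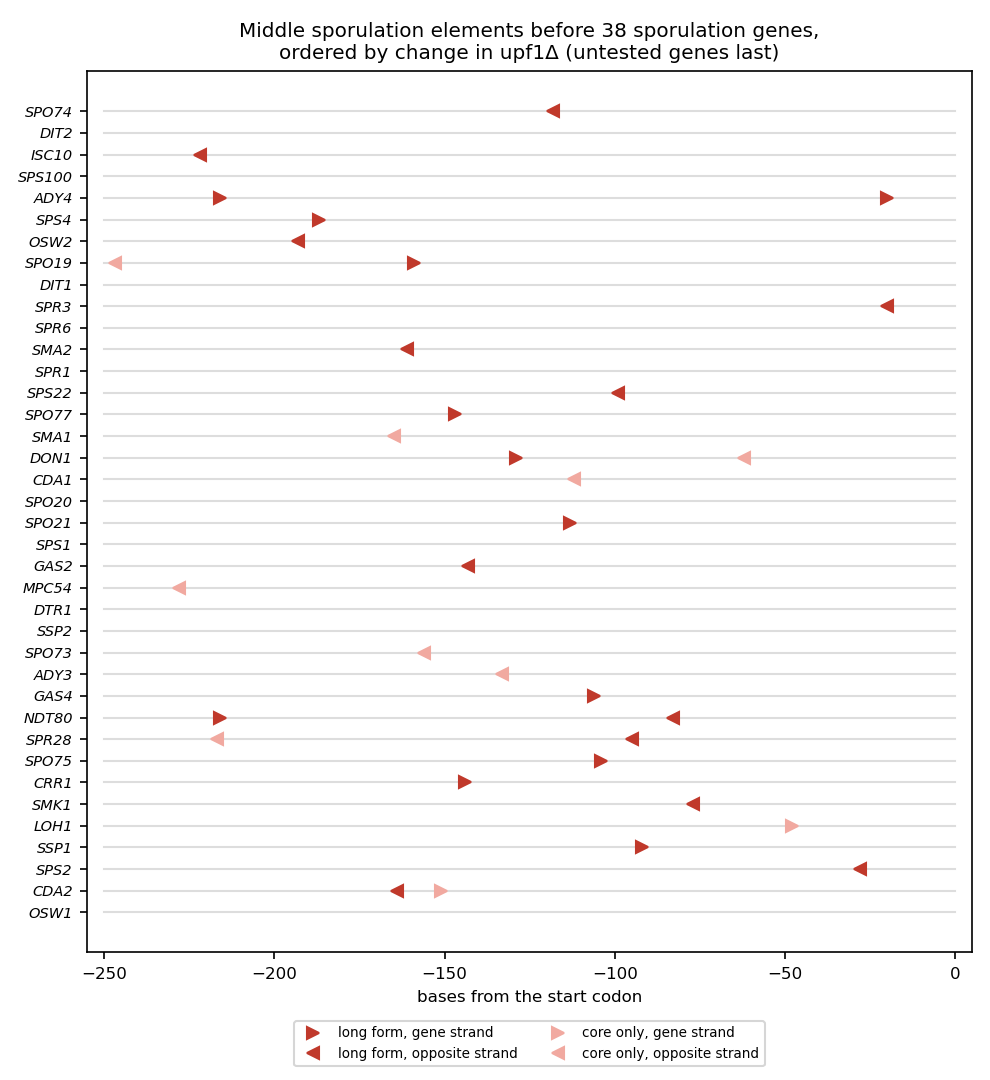
Position of middle sporulation element cores in the 250 bases before the start codon of the 38 genes, ordered from top to bottom by the log2 fold change in upf1Δ, with the 3 untested genes last. Triangles point along the strand of the core, and dark ones mark the longer form. Cores occur in promoters from the top to the bottom of the order, and 10 of the 38 promoters hold none.

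The transcription factor and the kinases of the middle programme had log2 fold changes of 0.40 to 1.12 in upf1Δ (median 0.55). Of these 3 genes 2 passed, beside 36.4% of all tested genes called higher. NDT80 (YHR124W, chromosome VIII, 356561 to 358444) encodes the transcription factor itself. Its level was 1.75, 1.71, 1.63, 1.44 and 1.68 CPM in wild type and 2.52, 2.30 and 2.53 in upf1Δ. In nmd4Δ it ran from 1.46 through a median of 1.57 to 2.10, and in ebs1Δ it was 2.12, 2.01 and 1.91. Every upf1Δ and ebs1Δ library lay above all of wild type, while nmd4Δ overlapped it. The log2 fold change was 0.55 ± 0.154 (SE) in upf1Δ (edgeR adjusted p = 0.00381), 0.27 ± 0.160 in ebs1Δ (adjusted p = 0.251) and 0.02 ± 0.113 in nmd4Δ (adjusted p = 0.905). SMK1 (YPR054W, chromosome XVI, 666280 to 667446), a mitogen-activated protein kinase needed to build the spore wall, did not pass in any deletion. It had 1.03, 1.05, 1.12, 1.16 and 1.35 CPM in wild type and 0.978, 1.53 and 1.70 in upf1Δ, so that 1 upf1Δ library lay below every wild type one. Its log2 fold change in upf1Δ was 0.40 ± 0.230 (edgeR adjusted p = 0.128), and 0.58 without that library, upf1Δ replicate 1 (adjusted p = 0.0306). The estimates in nmd4Δ and ebs1Δ were 0.28 ± 0.158 and 0.24 ± 0.237 (adjusted p = 0.194 and 0.502). SPS1, a Ste20-family kinase that acts in closing the prospore membrane, rose in all 3 deletions, by 1.12 ± 0.158 in upf1Δ, 0.69 ± 0.165 in ebs1Δ and 0.34 ± 0.119 in nmd4Δ.

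Genes of the modified spindle pole body, from which the prospore membrane grows, and of the coat on its leading edge were all higher in upf1Δ (7 of 7, median log2 fold change 1.19). Over all tested genes it was 36.4%. SPO74 (YGL170C, chromosome VII, 184153 to 185394), a subunit of the meiotic outer plaque, had the largest estimate of the 35 genes. It had 1.06, 1.12, 1.39, 1.11 and 0.889 CPM in wild type, and 8.92, 8.69 and 7.83 in upf1Δ. The ebs1Δ libraries had 2.15, 2.24 and 1.81 CPM, and nmd4Δ ran from 1.20 through a median of 1.40 to 1.69. Only the nmd4Δ libraries overlapped wild type. Its log2 fold change was 2.95 ± 0.160 in upf1Δ (edgeR adjusted p = 4.51e-12), 0.92 ± 0.188 in ebs1Δ (adjusted p = 0.00169) and 0.33 ± 0.136 in nmd4Δ (adjusted p = 0.0739). ADY4 (YLR227C, chromosome XII, 590562 to 592043), another plaque subunit, was measured with more reads, at 14.2, 14.7, 14.7, 14.8 and 14.2 CPM in wild type. The upf1Δ libraries had 73.2, 75.2 and 76.4 CPM, ebs1Δ had 20.6, 22.3 and 21.6, and nmd4Δ ran from 15.4 through 16.7 to 17.8. No deletion overlapped wild type, and the 3 deletions did not overlap one another. ADY4 rose by 2.34 ± 0.0524 in upf1Δ (edgeR adjusted p = 1.84e-17), 0.54 ± 0.0559 in ebs1Δ (adjusted p = 1.26e-06) and 0.19 ± 0.0408 in nmd4Δ (adjusted p = 0.003).

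The other plaque subunits, SPO21 and MPC54, rose by 1.19 ± 0.117 and 1.00 ± 0.108 in upf1Δ. In nmd4Δ their estimates were -0.01 and 0.14 and neither passed. Of the leading edge coat, DON1 (YDR273W, chromosome IV, 1010176 to 1011273) had 8.66, 9.03, 8.40, 8.89 and 9.58 CPM in wild type and 21.1, 22.1 and 23.8 in upf1Δ, a log2 fold change of 1.35 ± 0.0812 (edgeR adjusted p = 2e-11). Its ebs1Δ values of 9.62, 8.99 and 10.1 CPM overlapped wild type. ADY3, which recruits Don1 to the edge, rose by 0.79 ± 0.0741 in upf1Δ and 0.21 ± 0.0553 in nmd4Δ. SSP1, which is removed from the edge when the membrane closes, rose by 0.26 ± 0.0989 in upf1Δ, 0.27 ± 0.0716 in nmd4Δ and 0.41 ± 0.0986 in ebs1Δ. The upf1Δ call (edgeR adjusted p = 0.0265) was lost without wild type replicate 4, upf1Δ replicate 1 or upf1Δ replicate 2, with adjusted p of 0.0537, 0.082 and 0.113.

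**Figure D3:**
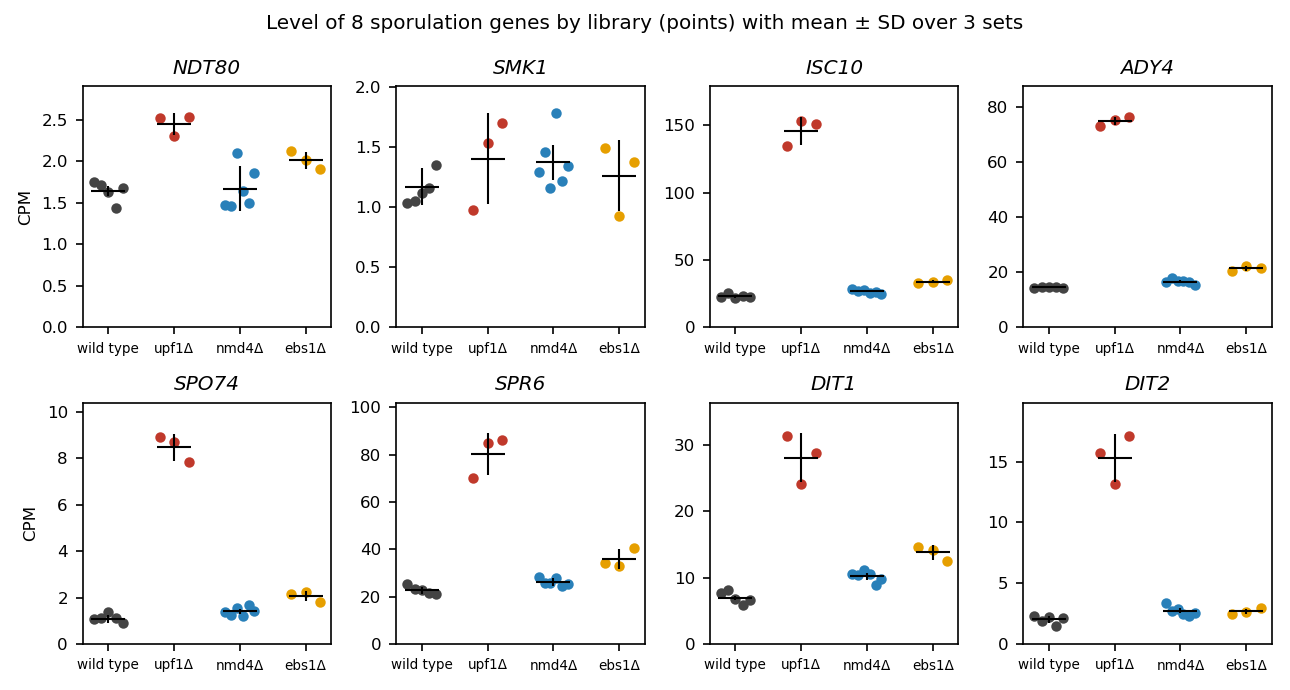
Level of 8 sporulation genes by genotype in CPM, each panel with its own axis from 0. Points are libraries, horizontal bars the mean and vertical bars the SD over 3 sets. The upf1Δ libraries stand above all others in 7 of the panels; in the panel of SMK1 the 4 genotypes overlap.

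Of 9 genes for growth and closure of the prospore membrane, 7 were higher in upf1Δ (median 1.45), beside 36.4% of all tested genes. SPO19, which entered the test only through the upf1Δ libraries, is among the 7. SPR3, a septin made only in sporulation, rose by 1.88 ± 0.151, from 1.58 ± 0.156 to 6.06 ± 0.435 CPM. SPR28, the other sporulation septin, had a log2 fold change of 0.55 ± 0.263 and did not pass (edgeR adjusted p = 0.068). SPO20 (YMR017W, chromosome XIII, 307489 to 308682), the SNARE protein that fuses vesicles into the membrane, had 1.67, 1.63, 1.82, 1.78 and 1.91 CPM in wild type and 4.82, 4.14 and 4.71 in upf1Δ. In nmd4Δ it ran from 2.17 through 2.67 to 2.85 CPM, above all of wild type. It rose by 1.31 ± 0.150 in upf1Δ (edgeR adjusted p = 2.99e-07) and 0.52 ± 0.114 in nmd4Δ (adjusted p = 0.00333), and its ebs1Δ estimate was 0.41 ± 0.164 (adjusted p = 0.0831). SPO73 (YER046W, chromosome V, 243180 to 243611), which acts in elongating the membrane, had 10.3, 9.26, 9.12, 8.42 and 9.07 CPM in wild type, 16.6, 16.7 and 17.5 in upf1Δ, and 10.2 through 10.9 to 11.6 in nmd4Δ. It rose by 0.84 ± 0.0746, 0.24 ± 0.0559 (edgeR adjusted p = 0.00512) and, in ebs1Δ, 0.26 ± 0.0773.

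The remaining membrane genes were among the scarcest. SPO77, a regulator of membrane closure, SMA2 and SMA1 lay under 1 CPM in each wild type library and rose by 1.64 ± 0.254, 1.74 ± 0.286 and 1.45 ± 0.329 in upf1Δ. SPO19 had a log2 fold change of 2.02 ± 0.562 there (edgeR adjusted p = 0.00357), but it entered the test only through the upf1Δ libraries and its libraries overlapped wild type. For SPO75 the estimate was 0.53 ± 0.235 (adjusted p = 0.0515).

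The glucan layer of the spore wall is laid down inside the closed membrane. All 6 of its genes that could be tested, of 7, were higher in upf1Δ (median 1.01), beside 36.4% of all tested genes. SPR1 (YOR190W, chromosome XV, 690695 to 692032), an exoglucanase of sporulating cells, had 3.84, 4.11, 3.11, 4.26 and 4.07 CPM in wild type and 10.9, 12.8 and 14.2 in upf1Δ. The nmd4Δ libraries ran from 3.91 through 4.21 to 4.31 CPM and ebs1Δ had 4.53, 4.40 and 3.96, both overlapping wild type. SPR1 rose by 1.68 ± 0.121 in upf1Δ (edgeR adjusted p = 3.21e-10), with estimates of 0.11 ± 0.0943 in nmd4Δ and 0.14 ± 0.134 in ebs1Δ. GAS2 and GAS4, a pair of glucanosyltransferases that share 66.2% of aligned coding bases and no run longer than 12, rose by 1.09 ± 0.124 and 0.66 ± 0.163. SPS22, needed with its paralog SPS2 for the glucan layer, rose by 1.66 ± 0.197 in upf1Δ and 0.75 ± 0.217 in ebs1Δ. SPS2 had 4 to 8 reads per library in wild type and 1 to 7 in upf1Δ and was not tested. SSP2, an activator of Smk1, rose by 0.93 ± 0.153 in upf1Δ, and CRR1, a putative glycosidase of the spore wall, by 0.47 ± 0.104.

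Chitosan and dityrosine form the outer layers. Of 7 tested genes of these layers, 6 were higher in upf1Δ (median 1.89), 5 in nmd4Δ and 4 in ebs1Δ. Over all tested genes it was 36.4%, 13.6% and 14%. With the matched sets as a block, DIT1 alone of the 5 in nmd4Δ passed. Of the 4 in ebs1Δ, SPS100 did not pass with the block (limma voom adjusted p = 0.0941). DIT1 (YDR403W) and DIT2 (YDR402C) are neighbours transcribed away from each other with 898 bases between their reading frames (chromosome IV), and encode the enzymes that make the dityrosine precursor, Dit2 being a cytochrome P450. DIT2 had 2.32, 1.86, 2.22, 1.51 and 2.11 CPM in wild type and 15.7, 13.2 and 17.1 in upf1Δ. The nmd4Δ libraries ran from 2.29 through 2.66 to 3.36 CPM and ebs1Δ had 2.49, 2.62 and 2.94. The nmd4Δ libraries overlapped wild type, and the upf1Δ and ebs1Δ libraries lay above it. DIT2 rose by 2.79 ± 0.144 in upf1Δ (edgeR adjusted p = 2.01e-12) and 0.39 ± 0.119 in nmd4Δ (adjusted p = 0.0196), and its ebs1Δ estimate of 0.27 ± 0.170 did not pass (adjusted p = 0.273). DIT1 had 7.68, 8.06, 6.84, 5.82 and 6.66 CPM in wild type, 31.4, 24.1 and 28.8 in upf1Δ, and 14.6, 14.2 and 12.5 in ebs1Δ. In nmd4Δ it ran from 8.84 through 10.4 to 11.1. Every library of each deletion lay above wild type. DIT1 rose by 1.89 ± 0.101 in upf1Δ (edgeR adjusted p = 3.44e-12), 0.87 ± 0.106 in ebs1Δ (adjusted p = 9e-06) and 0.53 ± 0.0787 in nmd4Δ (adjusted p = 0.000141), the last being the lowest p of the 35 genes in nmd4Δ.

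OSW2 (YLR054C), which acts in assembly of the outer spore wall, is the 1 gene of the 38 with an annotated intron. The gene lies on the minus strand of chromosome XII from 248717 to 250978, and the intron of 87 bases (250861 to 250947) follows a first coding exon of 31 bases. Read without splicing, the frame meets a stop codon at base 79, inside the intron, whereas the spliced frame reaches its stop codon at base 2173. The 5′ splice site and the branch point, in capitals below, come from the same R64 genome and are shown because the intron sets this frame.
OSW2 5′ splice site (chrXII:250928-250957, - strand): tgcttaatagGTATGGcaaagaagtttaag
OSW2 branch point (chrXII:250884-250913, - strand): aacaaaaattTACTAACatataaatgtaaa
Counts per gene do not separate spliced from unspliced OSW2 RNA. Its level was 3.34, 3.18, 3.90, 3.71 and 3.81 CPM in wild type and 13.7, 13.4 and 14.6 in upf1Δ, with 4.94, 6.37 and 5.34 in ebs1Δ and 3.80 through 4.39 to 4.96 in nmd4Δ. The upf1Δ and ebs1Δ libraries lay above all of wild type, and nmd4Δ overlapped it. OSW2 rose by 2.05 ± 0.108 in upf1Δ (edgeR adjusted p = 2.75e-12), 0.73 ± 0.116 in ebs1Δ (adjusted p = 0.000174) and 0.31 ± 0.0839 in nmd4Δ (adjusted p = 0.0118).

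Among the other outer layer genes, SPS100, a late spore wall protein, rose by 2.35 ± 0.190 in upf1Δ. It overlaps the non-coding transcript SUT169 on the opposite strand, and whether reads were counted by strand is not known here, so its count is uncertain. CDA1, a chitin deacetylase that makes chitosan, rose by 1.34 ± 0.121 in upf1Δ, 0.78 ± 0.126 in ebs1Δ and 0.30 ± 0.0918 in nmd4Δ. Its paralog CDA2, 69.2% identical in aligned coding bases, was not tested, with 1 to 3 reads per library in wild type and 7 to 12 in upf1Δ. DTR1, the transporter that exports the dityrosine precursor, rose by 0.96 ± 0.220 in upf1Δ, and its nmd4Δ estimate was -0.03. LOH1 had an estimate of 0.28 ± 0.217 in upf1Δ (edgeR adjusted p = 0.249), and OSW1 had 1 to 5 reads in wild type and 2 to 4 in upf1Δ and was not tested.

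By edgeR, the 3 genes outside these roles were called higher in every deletion. Called higher over all tested genes were 36.4% in upf1Δ, 13.6% in nmd4Δ and 14% in ebs1Δ. With the matched sets as a block none of the 3 passed in nmd4Δ (limma voom adjusted p = 0.0895 for ISC10, 0.137 for SPR6 and 0.157 for SPS4). In ebs1Δ SPS4 did not pass with the block (limma voom adjusted p = 0.079). The nmd4Δ libraries of SPR6 and the ebs1Δ libraries of SPS4 overlapped wild type. ISC10 (YER180C, chromosome V, 549724 to 550527), an inhibitor of Smk1, was the most abundant of the 38 in upf1Δ. It had 22.3, 25.4, 22.2, 23.5 and 22.8 CPM in wild type, 135, 153 and 151 in upf1Δ, and 33.2, 33.8 and 35.0 in ebs1Δ. In nmd4Δ it ran from 25.0 through 26.8 to 28.2. The upf1Δ and ebs1Δ libraries were apart from each other and from wild type, and the lowest nmd4Δ library lay within the wild type range. ISC10 rose by 2.61 ± 0.0569 in upf1Δ (edgeR adjusted p = 1.53e-17), the lowest p of the 35 genes, by 0.50 ± 0.0594 in ebs1Δ (adjusted p = 6.62e-06) and by 0.19 ± 0.0437 in nmd4Δ (adjusted p = 0.00425). SPR6 (YER115C, chromosome V, 394292 to 394867), of unknown function, had 25.2, 23.4, 22.8, 21.6 and 21.1 CPM in wild type, 70.0, 84.8 and 86.3 in upf1Δ, 34.2, 33.1 and 40.6 in ebs1Δ and 24.4 through 25.8 to 28.1 in nmd4Δ. It rose by 1.76 ± 0.0838 in upf1Δ (edgeR adjusted p = 5.57e-13), 0.60 ± 0.0870 in ebs1Δ (adjusted p = 6.74e-05) and 0.19 ± 0.0644 in nmd4Δ (adjusted p = 0.0318). SPS4 (YOR313C, chromosome XV, 901858 to 902874), a sporulation-induced gene, had 3.46, 3.29, 3.02, 3.74 and 3.58 CPM in wild type and 13.3, 15.8 and 15.2 in upf1Δ, a log2 fold change of 2.15 ± 0.149 (edgeR adjusted p = 1.9e-10). Its estimates were 0.58 ± 0.164 in ebs1Δ (edgeR adjusted p = 0.0163) and 0.38 ± 0.117 in nmd4Δ (adjusted p = 0.0225).

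**Figure D4:**
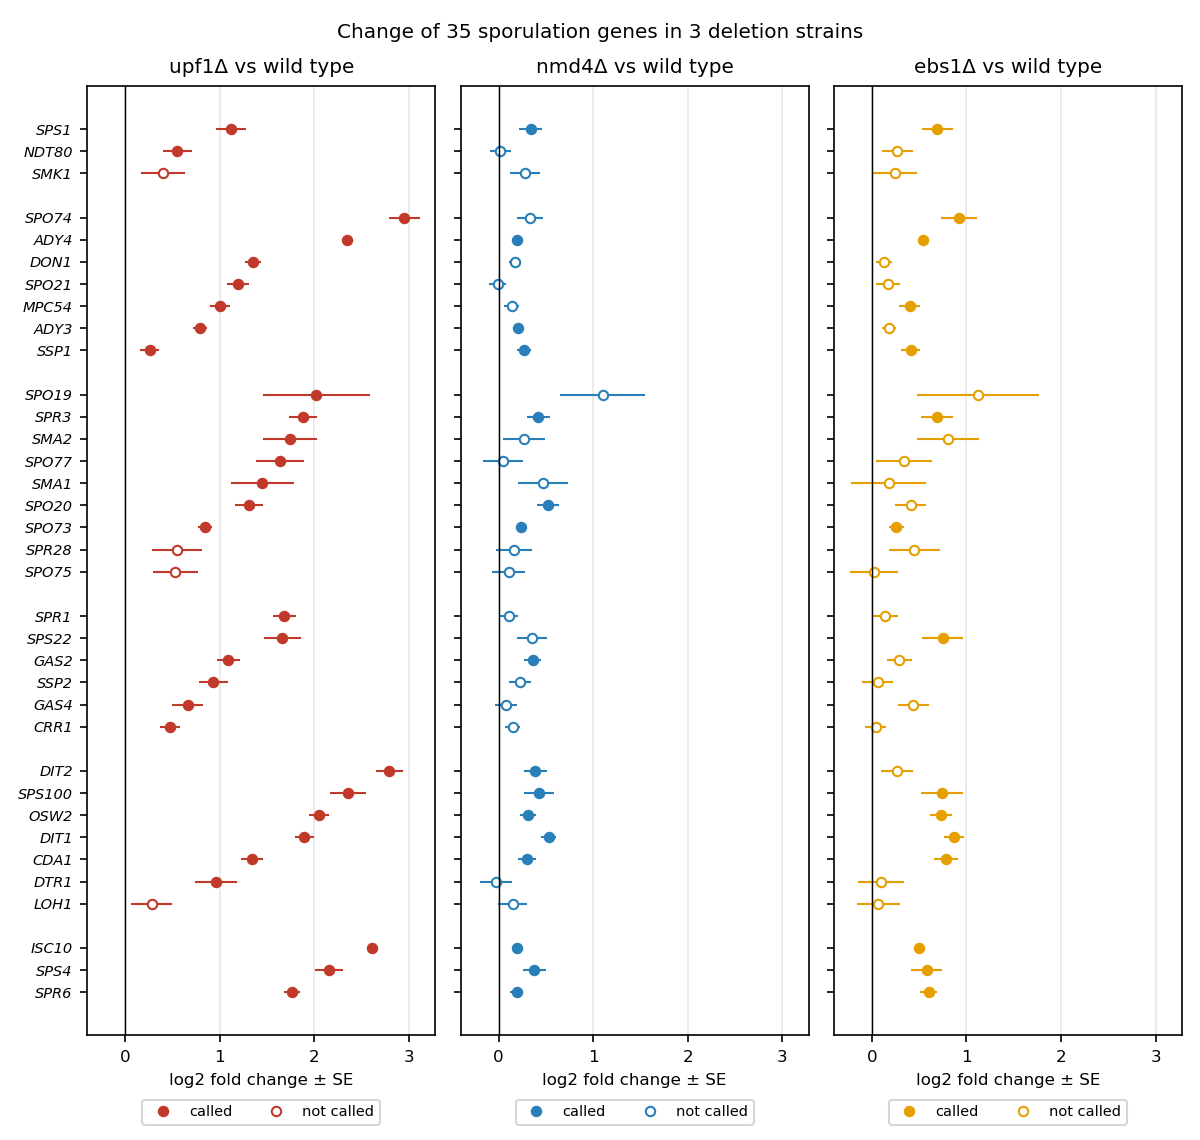
Log2 fold change of the 35 tested genes against wild type in each deletion, in the order of roles used in the text. Points are the edgeR estimates, bars their SE, and filled points passed an adjusted p under 0.05. In upf1Δ estimates run from 0.26 to 2.95, in nmd4Δ from -0.03 to 1.10 and in ebs1Δ from 0.02 to 1.12.

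In upf1Δ, then, 23 of the 35 rose by at least 2-fold, beside 15.4% of all tested genes. In 32 of 35 every upf1Δ library lay above every wild type one, beside 35.4%. SPO19, which entered the test only through the upf1Δ libraries, is in the 23 and in the 7 of 11 below. The median log2 fold change was 1.34, against -0.02 over all 6162 genes. Scarce mRNAs in general were called higher more often, so the count is also given by level, the mean CPM over the 4 genotypes. This mean includes upf1Δ, so a rise there also raises the level, and the split is not independent of the change. For example, SPO74, with 1.08 CPM in wild type and 8.48 in upf1Δ, counts between 2 and 10 CPM. DON1 and DIT1, with 9.02 and 6.95 CPM in wild type, count as over 10 CPM. Among genes with a mean under 2 CPM, 58.1% of 534 were higher in upf1Δ with a median of 1.18, and of the sporulation genes 7 of 11 with a median of 0.66. Between 2 and 10 CPM it was 65.4% of 448 with a median of 0.82, and 17 of 17 with a median of 1.34. Over 10 CPM it was 31.6% of 5180 with a median of -0.08, and 7 of 7 with a median of 1.76. Between change and mean level, Spearman's rho over all tested genes came to -0.51 for upf1Δ, -0.24 for nmd4Δ and -0.39 for ebs1Δ, a description over genes that share the same libraries.

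**Figure D5:**
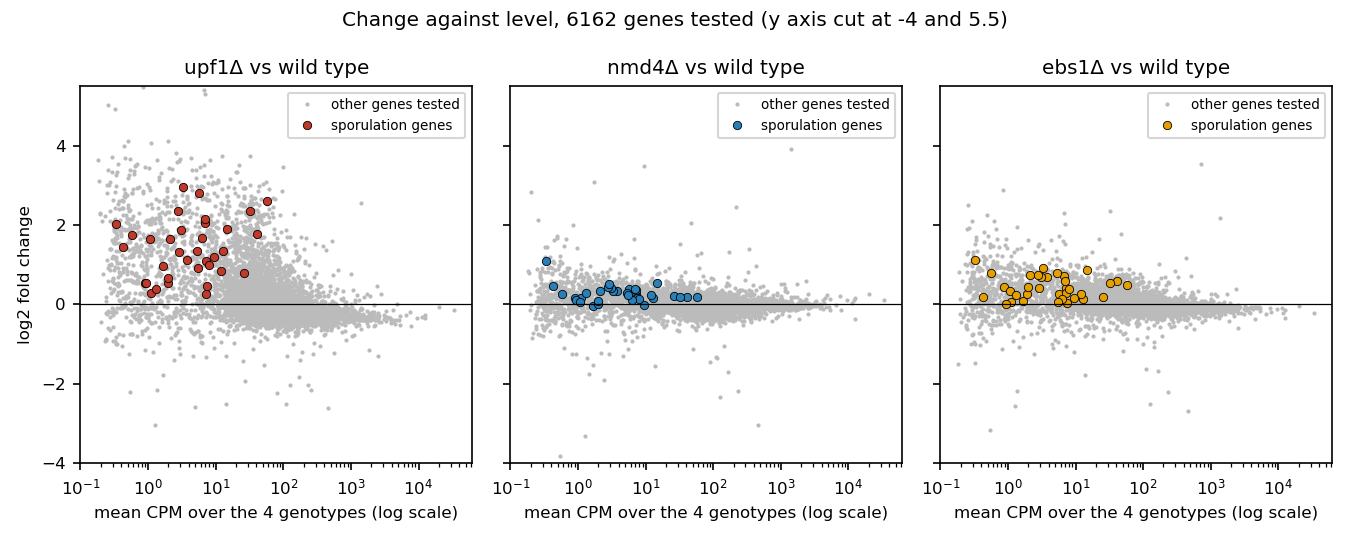
Log2 fold change against mean CPM over the 4 genotypes (log scale) for 6162 tested genes, with the 35 sporulation genes as large points. In upf1Δ the grey cloud rises toward low levels, and the 7 sporulation genes over 10 CPM lie between 0.79 and 2.61.

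Changes in ebs1Δ were smaller than in upf1Δ. All 35 estimates were positive, with a median log2 fold change of 0.41 against -0.01 over all genes, and in 19 of 35 every ebs1Δ library lay above wild type, beside 17.2% of all genes. The 15 called genes were SPS1, SSP1, ADY4, SPO74, MPC54, SPO73, SPR3, SPS22, CDA1, DIT1, OSW2, SPS100, SPS4, ISC10 and SPR6. None of the 11 genes under 2 CPM passed in ebs1Δ, where 9.93% of all genes of that level did. Within batch 1 alone 9 were called. With the matched sets as a block in limma voom 10 passed, and MPC54, SPR3, SPS22, SPS100 and SPS4 did not. Without 1 library or another, 10 kept their call in every fit, while SPS4 lost it without ebs1Δ replicate 3 (edgeR adjusted p = 0.105). MPC54, SPO73, SPS22 and SPS100 lost it without 1 of wild type replicates 1 and 2 or of the ebs1Δ libraries, with adjusted p of 0.0501 to 0.0995.

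In nmd4Δ 33 of 35 estimates were positive, but small, with a median of 0.24 against 0 over all genes, and in 8 of 35 every nmd4Δ library lay above wild type, beside 7.94%. The matched libraries bear on these calls. With the matched sets as a block in limma voom, DIT1 alone of the 16 passed (log2 fold change 0.54, adjusted p = 0.0279), and with matched libraries summed 4 passed. Within batch 1 alone 0 of 36 passed by edgeR, 9 at an unadjusted p under 0.05, and within batch 2 alone 6 of 34 passed. These fits hold fewer libraries, and the share of all genes called in them is not given here. DIT1 was 0.44 within batch 1 (edgeR adjusted p = 0.0849) and 0.60 within batch 2 (adjusted p = 0.00473). A difference of the nmd4Δ effect between batches passed for 0 of the 6162 genes (edgeR interaction test), and for 0 of the 35 at an unadjusted p under 0.05. Of the 16 calls, 9 held whichever single library was left out, those of SSP1, ADY4, ADY3, SPO20, SPO73, GAS2, DIT1, OSW2 and ISC10. SPS1, SPR3, CDA1, DIT2, SPS4 and SPR6 lost theirs without at least 1 wild type or nmd4Δ library, and SPS100 lost its call when any 1 of 10 libraries was left out, with edgeR adjusted p of 0.0502 to 0.117.

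The deletions were also compared with each other. Between nmd4Δ and upf1Δ 29 of 35 genes were lower in nmd4Δ and 0 higher, beside 36% and 30.9% of all genes, with a median of -0.99. ISC10 differed by -2.42 (edgeR adjusted p = 1.41e-17), ADY4 by -2.15, DIT2 by -2.40 and SPR6 by -1.57. Between ebs1Δ and upf1Δ 27 were lower in ebs1Δ and 0 higher, beside 33.8% and 27.4%, with a median of -0.90, and ISC10 differed by -2.11, ADY4 by -1.80, DIT2 by -2.52 and DON1 by -1.23. Between nmd4Δ and ebs1Δ 7 were lower in nmd4Δ and 0 higher, beside 16% and 10%, with a median of -0.20. These were ADY4 (-0.35, edgeR adjusted p = 0.000229), ISC10 (-0.31), SPR6 (-0.41), CDA1, OSW2, DIT1 and SPO74. Without ebs1Δ replicate 2 only ADY4, ISC10 and SPR6 passed, and with the matched sets as a block CDA1 passed as well. In the comparisons of nmd4Δ and of ebs1Δ with upf1Δ and of nmd4Δ with ebs1Δ, the number called the other way was also 0 at an unadjusted p under 0.05, by DESeq2 and by limma voom.

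Genes that act before or beside these were not all higher in upf1Δ. Of 14 regulators of sporulation gene transcription, 4 rose and 6 fell (median -0.08), which is 28.6% and 42.9% of the list beside 36.4% and 35.1% of all tested genes. IME2 rose by 2.92 ± 0.080, from 9.85 ± 1.09 to 72.2 ± 3.70 CPM, and HST1, a deacetylase that works with the repressor Sum1, rose by 0.96 ± 0.0645. SUM1 itself (-0.22, edgeR adjusted p = 0.000856) and its partner RFM1 (-0.30, adjusted p = 0.00246), named here after their values were seen, were lower. IME1, also named after its value was seen, was higher (0.48, edgeR adjusted p = 0.000781). RIM4, a translational repressor of meiotic mRNAs, fell by 1.29, and RPD3, the histone deacetylase that keeps early meiotic genes off, fell by 0.33. All 9 genes of a list of early meiotic genes without introns rose (median 1.89). Among them were ZIP1, of the synaptonemal complex, and RED1, of the meiotic chromosome axis, up by 2.32 and 2.21. Early meiotic genes with introns were not in this list. Of 18 further middle and late sporulation genes, 11 rose and 1 fell (median 0.64), with GSC2, a glucan synthase subunit, up by 2.28 and SPO71 down (-0.20). Of 7 spindle pole body and septin genes used in both mitosis and sporulation, 0 rose and 6 fell (median -0.41), for example CDC11 (-0.49) and CNM67 (-0.41). Of 8 genes of chitin and glucan synthesis 1 rose, FKS3 (1.03), and 7 fell, among them GAS1 (-0.52), the vegetative relative of GAS2 and GAS4. In nmd4Δ 0 of the 9 early meiotic and 3 of the 18 further middle and late genes were called higher, beside 13.6% of all genes, and 0 of those 3 passed with the matched sets as a block. In ebs1Δ it was 5 of 9 and 8 of 18, beside 14%, of which 4 and 5 passed with the block.

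Mating-type genes moved in the same libraries. In upf1Δ all 7 MATa genes fell (median -1.06), 2 of 4 MATalpha genes rose, SAG1 by 2.30 and STE3 by 1.02, and 4 of 5 genes of haploid cells fell. Over all tested genes 35.1% were called lower and 36.4% higher. The summed MATalpha level was 44 to 47.4 CPM in wild type, 186 to 192 in upf1Δ, 50.7 to 56.1 in nmd4Δ and 61.1 to 63.1 in ebs1Δ. For haploid genes the sums were 418 to 440, 340 to 382, 385 to 407 and 389 to 408 CPM. The part of these shifts in the sporulation gene result was not tested. In bulk RNA, a few cells with a high level of these mRNAs and a low level in every cell cannot be told apart.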

How the data were processed

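The authors deposited a table of raw counts, with genes in rows and libraries in columns; all columns were used. Per the labels' protocols, RNA was extracted with hot phenol, treated with DNase, poly(A)-selected and made into directional libraries. Per the submitters' processing notes, the tools were STAR 2.7.11a and featureCounts of Subread 2.0.5, and the build sacCer3. No source used here gives the annotation, the strand setting or how multi-mapping reads were treated.

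The counts of 6162 genes that passed edgeR's filterByExpr entered a robust quasi-likelihood fit with genotype and batch as terms and TMM scaling (edgeR 4.0.16, R 4.3.3). Tests were two-sided, with Benjamini-Hochberg adjustment over all tested genes and a threshold of 0.05. The SE is the log2 fold change over the square root of F. CPM is not batch-corrected. Alternatives used DESeq2 1.42.0 and limma 3.58.1, with voom and matched sets as a block (consensus correlation 0.7185). The steps were tested on simulated data in which all libraries were independent, so that test does not cover matched libraries. Precision is limited by counts as low as 0 to 12 reads for the 3 untested genes.

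Values in full are given for NDT80, SMK1, the 10 genes with the lowest p in upf1Δ, up to 5 in nmd4Δ and ebs1Δ and up to 4 per contrast between deletions. Of each other list, at most 4 called genes are named by this rule. Outside the rule, SUM1, RFM1 and IME1 were named after their values were seen. The 38 genes, the lists and this rule were chosen with earlier results of these data known. Promoter sequence was read from the RefSeq R64 genome.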

Additional observations from a re-analysis of the deposited data

Results flagged for a closer look

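In 1 of 76 groups of libraries compared for a value far from the rest, 1 library stood apart. The level of CDA2, the untested chitin deacetylase gene, was 0.179 CPM in nmd4Δ replicate 1 and 0.0396 to 0.0905 CPM in the other 5 nmd4Δ libraries. Chance alone gives such a gap in about 1 in 20 groups, and the highest nmd4Δ value rests on 5 reads.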

How the results depend on the processing

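The number of genes higher in upf1Δ stayed between 28 and 33 under every alternative run (31 as reported). In nmd4Δ the 16 calls became 0 within batch 1, 6 within batch 2, 1 with matched sets as a block and 4 with matched libraries summed. In ebs1Δ the 15 became 9 within batch 1, 10 with matched sets as a block and 8 when only wild type and ebs1Δ entered the fit. The 7 genes lower in nmd4Δ than in ebs1Δ became 4 with the matched block. The share of all genes called under each alternative is not given beside these counts. Leaving out 1 library gave 30 to 32 calls in upf1Δ, 11 to 17 in nmd4Δ, 11 to 16 in ebs1Δ, 28 to 30 between nmd4Δ and upf1Δ, 26 to 28 between ebs1Δ and upf1Δ, and 3 to 9 between nmd4Δ and ebs1Δ. The direction of NDT80 in nmd4Δ (0.02) turned to -0.05 within batch 1 and -0.04 with the replicate number as a block, and ran from -0.03 to 0.06 with 1 library left out, at 0.00 without wild type replicate 4. Deviations of same-numbered libraries correlated at -0.07 to 0.51, over 0.1 in 10 of 15 pairs. Those of other libraries correlated at -0.632 to 0.411, over 0.1 in 6 of 30 pairs. Since not every same-numbered pair passed 0.1 and no label ties the numbers, they were not taken as pairs. Whether the numbers mark pairs is not known. With the replicate block 31, 13 and 10 genes were higher in upf1Δ, nmd4Δ and ebs1Δ. The cause of these changes was not tested. Of the single values tracked this way, 5 lost their call under at least 1 alternative, each in nmd4Δ (DIT1, ADY4, SPO20, ISC10 and SPO73). The 3 untested genes had at most 12 reads in a library.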

Other observations

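The genes next to the sporulation genes were not generally higher in upf1Δ. Of 61 tested adjacent genes outside the 38, 18 were higher (29.5%, against 36.4% of all genes) and 23 lower by edgeR, with a median log2 fold change of -0.05. Of the 22 upstream in tandem 9 were higher, of the 9 that share an upstream region 2, and of the 30 downstream 7. Chosen after their values were seen, the neighbours upstream of ISC10, SPR6 and CDA1 are SLO1 (2.55), SLX8 (1.34) and UBC12 (1.45), while DMC1, downstream of ISC10, had 0.04. NMD4 and EBS1, which encode proteins that bind Upf1, were themselves higher in upf1Δ, by 1.68 ± 0.0715 and 0.73 ± 0.0674.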
